A study of Mus musculus with 4 samples.

Results

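Connexin and pannexin transcripts of the epidermis were followed in cultured mouse epidermal stem cells, the keratinocyte progenitors that renew the skin's outer layer. The members were the rows of the deposited table whose gene name was Gja1, Gjb2, Gjb5, Gjb6, Gjc1, Panx1, Panx2 or Panx3, and all 8 names were found once each among 54532 genes. The cells came from the skin of C57BL/6 mice and were grown in EpiLife medium with a growth supplement. One group was treated with ALP at 30 μg/mL for 48 h. The series title names a polysaccharide of burdock, Arctium lappa L., which ALP is taken to stand for. The control group was given 0.06% DMSO for the same time. Each group held 2 libraries, called A and B here by the order of their columns, and the letters were not used as pairs. Both B libraries carry the same replicate number in the deposited table. Whether that number marks a shared culture or day is not stated, and its part in the results was not tested. Nothing in the labels tells whether DMSO was also in the ALP cultures, how many animals were used, or if replicates were grown separately. The p-values therefore rest on the spread between libraries alone, and that spread may be technical.

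Connexins are the subunits of gap junctions. Rings of them in the membranes of neighbouring cells dock into a channel through which ions and small molecules pass, and undocked rings can open to the outside as hemichannels. Pannexins resemble connexins in fold but not in sequence and act mainly as single-membrane channels that release ATP. In the epidermis different connexins mark different layers, several are altered during wound healing, and inherited changes in some of them cause thickened skin, hair loss or deafness.

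Of the 8 members, 3 rose after ALP, 0 fell, 3 did not pass the test and 2 had too few reads to be tested. Gjb5, a connexin of stratified epithelia and the placenta, rose 3.01-fold. Gjc1 (Cx45), best known from the conduction system of the heart and from smooth muscle, rose 2.07-fold, and Gja1 (Cx43), the most widely distributed connexin, rose 1.31-fold. Gjb2 (Cx26), Gjb6 (Cx30) and Panx1, the ubiquitous ATP-release channel, did not pass. The test was edgeR's quasi-likelihood test over all 14056 genes tested, with Benjamini-Hochberg adjustment and a call at an adjusted p under 0.05. By this rule 29.8% of all tested genes were called, 17.7% higher and 12.1% lower in ALP, so 3 of 6 tested members stands beside a background in which changed genes were common. DESeq2 and limma-voom also called 3 members higher and 0 lower, and at an unadjusted p under 0.05 edgeR had 3 higher and 0 lower. Leaving out either control library left 0 members called, with 1 (without A) and 2 (without B) at an unadjusted p under 0.05. Libraries of the groups did not overlap for 4 of the 6 tested members, beside 75.7% of all tested genes.

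Libraries held 15766244 to 17430345 counts. Those of one group differed by more than counting noise, with a chi-square per degree of freedom of 5.92 for the control pair and 22.4 for the ALP pair, and ALP replicate B lay farther from the controls than ALP replicate A on the first principal component (-76.9 and -21.6, against 42.7 and 55.8). All 10 keratinocyte markers were detected, with a summed level of 60530 and 60640 CPM (counts scaled to library size with TMM factors) in the controls and 45900 and 37750 CPM in ALP. Members of this list went both ways: 5 were lower, Krt5 and Krt14 with the highest levels among them, and 2 were higher (Epcam by 1.88 ± 0.23 and Itga6 by 0.38 ± 0.09 on the log2 scale). Leukocyte markers summed to between 0.116 and 0.323 CPM in the 4 libraries, with Cd207 and Cd3e at 0 reads. Fibroblast markers summed to 19.1 and 15.5 CPM in the controls and 9.82 and 7.04 CPM in ALP, with Lum at 0. Dcn alone was called lower (13.1 and 8.56 CPM in the controls, 3.06 and 0.517 CPM in ALP). Col3a1 was also below both controls in ALP but was not called (1.53 and 0.970 CPM in the controls, 0.867 and 0.452 CPM in ALP). Col1a1, Col1a2, Pdgfra and Thy1 overlapped between the groups. Melanocyte markers summed to 67.1 and 73.2 CPM in the controls and 57.8 and 69.5 CPM in ALP, with Mitf called lower and the other 5 not called. Markers of smooth muscle and pericytes summed to between 90.0 and 112 CPM, nearly all of it Acta2, with Des at 0 and the groups overlapping. Endothelial markers (6 genes) summed to 6.90 and 8.10 CPM in the controls and 15.2 and 25.3 CPM in ALP, with Kdr and Pecam1 called higher and Tek called lower. Schwann cell markers (5 genes) summed to 52.0 and 55.2 CPM in the controls and 93.3 and 118 CPM in ALP, nearly all of it Mbp. The part of these other markers in the connexin results was not tested. In bulk RNA, fewer cells of a type and less RNA per cell cannot be told apart.

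Promoter windows were read for the members, so that their sequence can be set beside their values. The RefSeq table (GRCm38.p6) had an entry for 5 of the 8 members, and the 250 bases before the annotated start are shown for Gja1, which rose by little, Gjb5, which rose by the most among the members, and Gjb2, which did not pass. They read 5′ to 3′ on the gene's strand, and capitals mark the motifs found in a search of both strands. For AP-1, the factor of Jun and Fos proteins, the letters searched were TGANTCA. For the GC box, bound by Sp1, they were GGGCGG, and for the box that places the start of transcription they were TATAAA. The pentamer bound by the factor NF-Y was CCAAT, and the E-box of basic helix-loop-helix factors was CACGTG. No search string contains another.
Gja1, chr10:56377050-56377299, plus strand: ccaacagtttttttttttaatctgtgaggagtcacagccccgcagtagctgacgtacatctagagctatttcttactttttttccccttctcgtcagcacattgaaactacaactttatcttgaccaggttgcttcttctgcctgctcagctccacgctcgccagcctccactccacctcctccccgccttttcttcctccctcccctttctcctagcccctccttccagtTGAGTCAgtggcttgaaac
Gjb5, chr4:127358165-127358414, minus strand: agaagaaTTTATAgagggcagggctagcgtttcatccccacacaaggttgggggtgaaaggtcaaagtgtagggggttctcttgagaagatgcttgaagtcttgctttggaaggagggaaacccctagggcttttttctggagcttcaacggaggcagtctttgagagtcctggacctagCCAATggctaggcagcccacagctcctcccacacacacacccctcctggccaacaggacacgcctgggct
Gjb2, chr14:57104703-57104952, minus strand: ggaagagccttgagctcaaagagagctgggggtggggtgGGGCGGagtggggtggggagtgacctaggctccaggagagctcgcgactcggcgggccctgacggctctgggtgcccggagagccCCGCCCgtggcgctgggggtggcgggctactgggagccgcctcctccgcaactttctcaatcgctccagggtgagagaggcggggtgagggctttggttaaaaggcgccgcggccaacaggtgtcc
The Gja1 window held TGAGTCA from position -19, counted back from the start site, and no other of these motifs. AP-1 motifs stood in 6.75% of 32851 promoter windows of the same length. Gjb5 held a CCAAT box at -70, found in 33.8% of windows, and the letters of a TATA box on the opposite strand at -243, found in 12.4%. Gjb2 held a GC box at -211 and another on the opposite strand at -126, and 32.7% of windows have at least 1. Its window had 69.2% G and C, against 54.4% for Gjb5, 50% for Gja1 and a median of 52.4% over all windows. The Panx1 window held a CCAAT box at -201 and the Gjb6 window none of the 5 motifs. A match is a run of letters and not a shown binding site.

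Levels of different genes were compared per length, as FPKM (the count per kilobase of gene, scaled to the library total). In the controls Gja1 stood highest at 25.5 ± 0.514 FPKM (mean ± SD, n = 2 here and below), followed by Panx1 at 10.3 ± 0.119, Gjb2 at 7.06 ± 0.337 and Gjb5 at 5.67 ± 1.03. Gjc1 at 0.908 ± 0.246 and Gjb6 at 0.333 ± 0.107 FPKM were far lower, and Panx2 at 0.056 ± 0.0566 FPKM rested on 1 and 6 reads. The distance between Gjb2 and Gjb5 was little more than the SD of Gjb5, and the other neighbours in this order lay farther apart than their SDs. After ALP the order changed in that Gjb5 moved up past both Gjb2 and Panx1. At 16.7 ± 3.16 FPKM it stood above Panx1 at 11.1 ± 0.767 and Gjb2 at 7.41 ± 1.64, behind Gja1 at 32.5 ± 0.337. These orders are descriptions and carry no test.

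**Figure D1:**
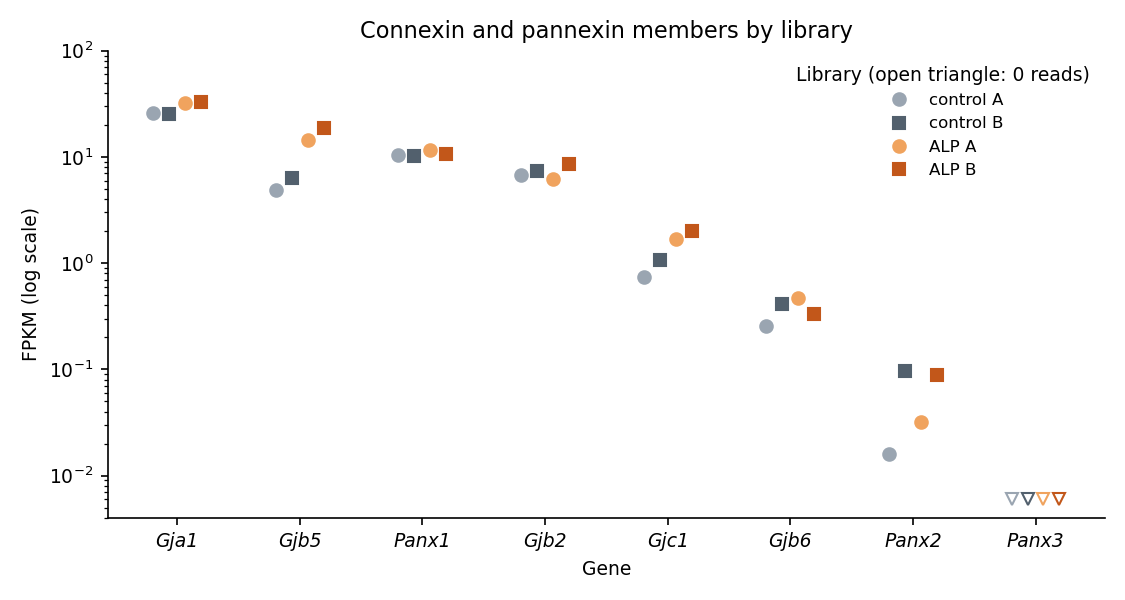
FPKM on a log axis for the 8 members, with 1 point per library (grey for control, orange for ALP, circles for A and squares for B) and open triangles for libraries with 0 reads. The ALP points of Gjb5 (14.4 and 18.9) lie above its control points (4.94 and 6.39), while those of Gjb2 (6.25 and 8.57) lie on both sides of the controls (6.83 and 7.30).

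Gja1 lies on chromosome 10 (56377330 to 56402513, plus strand, GRCm38). It measured 333 and 341 CPM in ALP against 261 and 255 CPM in the controls. Both ALP libraries were above both controls and close to each other. The log2 difference was 0.38 ± 0.08 (SE, n = 2 per group), with a 95% interval of 0.18 to 0.59 and an edgeR adjusted p = 0.0266. The rise was as large without any single library, between 0.37 and 0.40, but its adjusted p became 0.225 with control A left out and 0.203 with control B left out. At 20149 reads in all, Gja1 was the most deeply counted member.

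Gjb5 lies on chromosome 4 (127354809 to 127358181, minus strand). It measured 25.0 and 33.1 CPM in ALP and 8.37 and 10.9 CPM in the controls, from 433, 513, 148 and 191 reads. The groups did not overlap, and within each group replicate B was the higher. Its log2 difference was 1.59 ± 0.21 (95% interval 1.06 to 2.12, edgeR adjusted p = 0.0161). With 1 library left out the difference ranged from 1.39 to 1.80, and its adjusted p became 0.118 with control A left out and 0.0532 with control B left out.

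Gjc1 lies on chromosome 11 (102799579 to 102819700, minus strand). Its ALP libraries measured 8.49 and 10.1 CPM and its controls 3.62 and 5.36 CPM. All of these are low levels, carried by 64 to 157 reads a library, and the groups did not overlap. The log2 difference was 1.05 ± 0.26 (95% interval 0.41 to 1.70, edgeR adjusted p = 0.0352). It was 0.78 without control replicate A (adjusted p = 0.226) and 1.37 without control replicate B (adjusted p = 0.0844).

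Gjb2 and Gjb6 are neighbours on chromosome 14 (57098600 to 57104702 and 57123303 to 57133611, both minus strand). Gjb2, whose inherited changes are a leading cause of deafness and also cause skin disease, measured 15.1 and 21 CPM in ALP and 16.2 and 17.4 CPM in the controls. ALP replicate A was the lowest of the 4 libraries and ALP replicate B the highest. The log2 difference of 0.10 ± 0.19 did not pass (edgeR adjusted p = 0.707). Its 95% interval of -0.38 to 0.58 leaves room for a change anywhere from 0.77-fold to 1.5-fold, and the sign turned to -0.14 without ALP replicate B. Gjb6, altered in a form of ectodermal dysplasia with hair loss and thick palms, had 22 and 14 reads in ALP and 12 and 19 in the controls. Its groups overlapped, and the log2 difference was 0.31 ± 0.44 (95% interval -0.80 to 1.41, edgeR adjusted p = 0.62). Changes from 0.58-fold to 2.66-fold could thus not be told from none at this depth. Both genes are similar in sequence, and the treatment of reads that fit both genes is not stated.

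The pannexins held 1 tested member. Panx1, on chromosome 9 (15002128 to 15045478, minus strand), measured 70.7 and 64.8 CPM in ALP and 61.6 and 60.9 CPM in the controls. Both ALP libraries were above both controls, which held for 38.2% of all tested genes, and the smallest step between the groups was a factor of 1.05. The log2 difference of 0.15 ± 0.09 did not pass (edgeR adjusted p = 0.248), and its 95% interval of -0.08 to 0.37 ends at 1.29-fold. Panx2, known mostly from the brain, on chromosome 15 (89059734 to 89073567, plus strand), had 2 and 5 reads in ALP and 1 and 6 in the controls, too few for a comparison. Panx3, a channel of cartilage, bone and skin on chromosome 9 (37659902 to 37669235, minus strand), had 0 reads in each of the 4 libraries, which allows up to 3 reads or 0.170 to 0.194 CPM per library. Such limits cover counting error only.

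**Figure D2:**
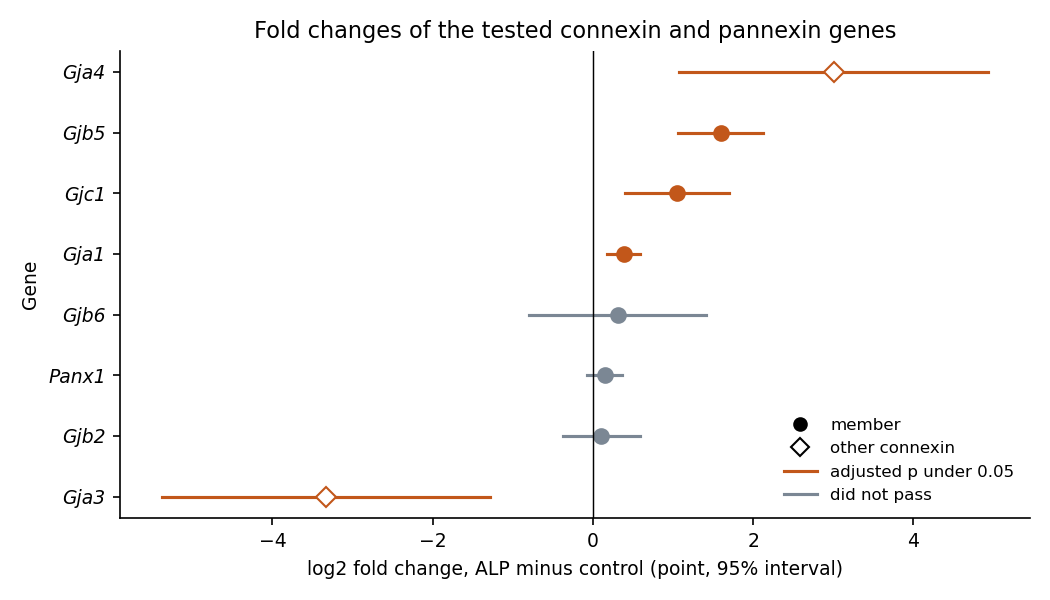
The log2 fold change of ALP against control for 8 tested connexin and pannexin genes, with the 95% interval as a line, filled circles for members, open diamonds for other connexins, and orange for an adjusted p under 0.05. Gjb5 at 1.59, Gjc1 at 1.05 and Gja1 at 0.38 lie to the right of 0 with their intervals, and the intervals of Gjb6, Panx1 and Gjb2 cross 0.

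The same test was read for 18 connexin genes, of which 7 were tested. Of these, 4 were higher, 1 was lower and 2 did not pass, beside 17.7% higher and 12.1% lower among all tested genes. The median log2 difference was 0.38 against -0.00 over all genes tested. DESeq2 called 4 higher and 1 lower, and limma-voom 3 and 1. With control A or control B left out, edgeR called 0 in either direction. Beside the members Gjb5, Gjc1 and Gja1, Gja4 (Cx37) rose and Gja3 (Cx46) fell.

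Gja4, a connexin of endothelial cells, was scarce, with 14 and 39 reads in ALP and 3 and 4 in the controls (log2 difference 3.0 ± 0.77, edgeR adjusted p = 0.039). It did not pass by limma-voom (adjusted p = 0.0593), nor without ALP replicate B (log2 difference 2.0, adjusted p = 0.0908) or either control library (0.214 without A, 0.149 without B). Among the endothelial markers Kdr had 105 and 170 reads in ALP and 9 and 18 in the controls and Pecam1 had 144 and 213 against 70 and 97, whereas Tek fell from 28 and 20 reads in the controls to 4 and 3 in ALP (edgeR adjusted p = 0.0207). Vwf, not tested, had 2 and 3 reads in ALP and 12 and 6 in the controls, Tie1, not tested, had 8 and 2 against 1 and 1, and Cdh5 had between 0 and 2 reads in every library. The part of endothelial cells in the Gja4 result was not tested. Gja3, a connexin of the lens, fell from 44 and 44 reads in the controls to 8 and 0 in ALP (edgeR adjusted p = 0.0353, but 0.184 or 0.145 with control A or B left out). The other 11 connexin genes read had at most 4 reads in any library, and Gja10, Gjd2, Gjd4 and Gje1 had 0 in all.

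By FPKM, the 5 member connexins together reached 38.6 and 40.3 in the controls and 55.1 and 62.5 in ALP. Gja1 made up 64.7% ± 3.28 of this sum in the controls and 55.4% ± 4.38 in ALP. Gjb5 went from 14.3% ± 2.17 to 28.2% ± 2.85 and Gjb2 from 17.9% ± 0.308 to 12.5% ± 1.67. Gjc1 took 2.29% ± 0.553 and 3.12% ± 0.0873, and Gjb6 0.841% ± 0.246 and 0.694% ± 0.230. The groups did not overlap in the shares of Gja1, Gjb5, Gjb2 and Gjc1, and overlapped in that of Gjb6. Among all tested genes, levels did not overlap for 75.7%. The shares add up to the whole, so a rise in any of them lowers the rest. In FPKM itself the mean of Gja1 went from 25.5 to 32.5 and that of Gjb2 from 7.06 to 7.41, so neither mean fell.

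**Figure D3:**
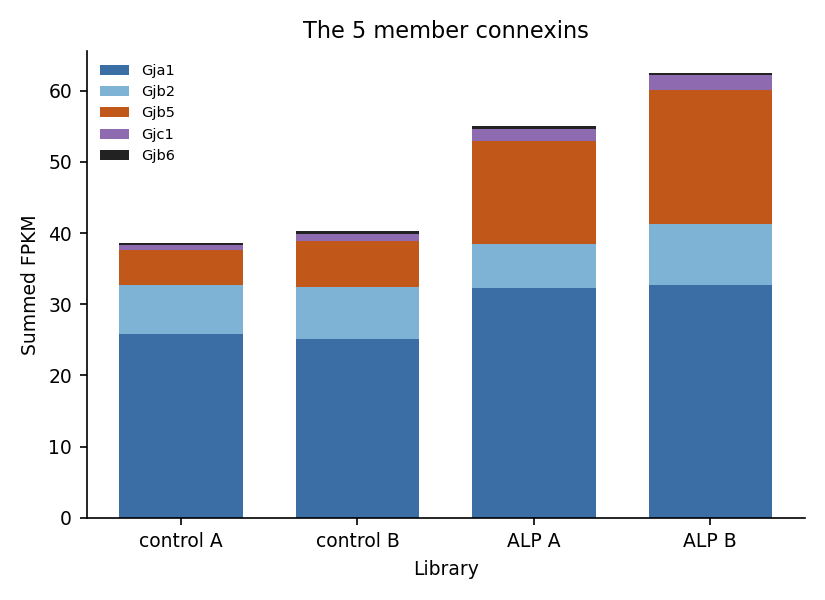
Stacked bars of FPKM per library for the 5 member connexins, where each colour is a gene and the height is the sum. Gja1 is the largest block in every library, and the Gjb5 block is larger in the ALP libraries (14.4 and 18.9 FPKM) than in the controls (4.94 and 6.39 FPKM).

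The surroundings of Gjb2 were looked at after the values had been seen. On chromosome 14 the start sites of Gja3 and Gjb6 lie 46.6 and 28.9 kb to either side of that of Gjb2, and of these 3 genes 1 fell and 2 did not pass. Among 9 other tested protein-coding genes with a midpoint within 500 kb of the Gjb2 start, 2 rose and 2 fell, with log2 differences from -0.63 to 1.21. Of all tested genes 29.8% were called. No exon of a member shares bases with an exon of another gene in GENCODE M21, so reads from another annotated gene's exons do not overlap those of the members.

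Among 10002 protein-coding genes of at least 5 CPM outside the connexin and pannexin families, those whose profile over the 4 libraries lay nearest to a called member were listed, as a description. Nearest to Gja1 were Pak1, a kinase of the cytoskeleton, at 51.2 and 52.9 CPM in ALP and 40.2 and 39.5 in the controls, and Trio, a guanine nucleotide exchange factor. Nearest to Gjb5 were Dut, which encodes the enzyme that removes dUTP, with a log2 difference of 1.54 ± 0.20, and Fscn1, the actin-bundling protein fascin, with 1.55 ± 0.20. Nearest to Gjc1 were Tmem106a, with 1.10 ± 0.27, and the keratin gene Krt7, with 1.08 ± 0.21. With 4 libraries in 2 groups a small distance says little beyond a similar fold change.

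Other channels that release ATP or sense cell volume were read from a list. For this and the lists that follow, the background is 29.8% of all tested genes called, 17.7% higher and 12.1% lower. Without control replicate A edgeR called 0 genes in this and every list that follows, and without control replicate B at most 1 in any of them. Of 12 genes 8 were tested, 3 rose and 0 fell (5 higher and 0 lower at an unadjusted p under 0.05, 2 and 0 by DESeq2, 4 and 0 by limma-voom), with a median log2 difference of 0.39. Lrrc8c, a subunit of volume-regulated anion channels, measured 211 and 290 CPM in ALP and 91.4 and 111 CPM in the controls, a log2 difference of 1.31 ± 0.18. Lrrc8b, of the same channels, rose by 0.37 ± 0.10 (edgeR adjusted p = 0.0402), and did not pass by DESeq2 (0.0707), with upper-quartile scaling (0.051) or without the low-count filter (0.0694). Slc17a9, the transporter that loads ATP into vesicles, rose by 1.71 ± 0.43 at a low level, from 0.848 and 1.48 CPM to 2.89 and 4.78 CPM. Calhm2, of another family of large-pore channels, measured 31.0 CPM in both ALP libraries and 21.7 and 25.0 CPM in the controls and did not pass (edgeR adjusted p = 0.061).

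Receptors for the released nucleotides and adenosine showed both directions, with 4 of 9 tested genes higher and 1 lower, out of 19 listed (median log2 difference 0.17). P2rx2, an ATP-gated channel, measured 208 and 249 CPM in ALP and 115 and 154 CPM in the controls, a rise of 0.76 ± 0.17. Adora2b, an adenosine receptor, rose by 0.94 ± 0.17, from 6.79 and 6.90 to 12 and 14.3 CPM. P2ry2, a G-protein-coupled receptor for ATP and UTP, rose by 1.81 ± 0.44 at 10 to 45 reads a library, and did not pass without ALP replicate B (log2 difference 1.41, adjusted p = 0.0605). P2rx4, another ATP-gated channel, rose by 0.76 ± 0.21. P2rx3, the ATP-gated channel of sensory neurons, fell by 3.15 ± 0.32 on the log2 scale, from 5.60 and 4.79 CPM to 0.636 and 0.517 CPM. Of its exon bases 1.83% overlap Ssrp1 on the opposite strand. Of 11 enzymes of nucleotide breakdown and adenosine removal 5 were tested, 1 rose and 1 fell. Enpp1, which splits ATP into AMP and pyrophosphate, rose by 2.73 ± 0.40, from 0.396 and 0.799 CPM to 3.87 and 4.13 CPM. Entpd2, which turns ATP into ADP, fell by 1.60 ± 0.36, from 3.28 and 4.85 CPM to 1.56 and 1.10 CPM, and shares 28.8% of its exon bases with Npdc1 on the same strand.

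**Figure D4:**
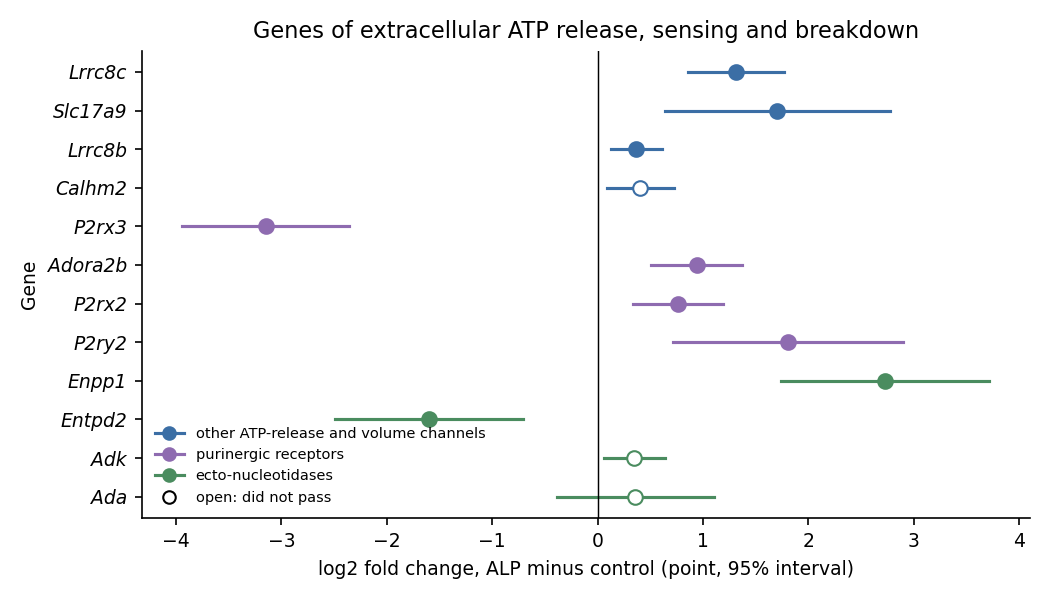
The log2 fold change of ALP against control, with its 95% interval, for the 4 genes with the smallest p-values in each list of ATP-release channels, purinergic receptors and nucleotide-breakdown enzymes, with open points for genes that did not pass. Enpp1 at 2.73 and P2rx3 at -3.15 lie at the 2 ends.

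Of 28 listed partners of connexins in trafficking, anchoring and turnover 27 were tested, 7 rose and 1 fell, a share of called genes near that of all tested genes (29.8%), with a median log2 difference of 0.01. DESeq2 and limma-voom each called 9 higher and 3 lower, edgeR had 9 and 6 at an unadjusted p under 0.05, and without ALP replicate A it called 10 higher and 7 lower. Gja1 itself is on the list. The tubulin genes Tuba1a and Tubb5, whose product binds the tail of Cx43, rose by 1.30 ± 0.19 and 0.93 ± 0.13, and 26.2% of the exon bases of Tuba1a overlap another annotated gene. Cav2, of caveolae, rose by 0.63 ± 0.14, and Map1lc3b, of autophagy, fell by 0.93 ± 0.14. Of 14 kinase genes listed for the phosphorylation of Cx43, 5 rose and 1 fell (median -0.01). Src, which closes Cx43 channels by tyrosine phosphorylation, rose by 1.04 ± 0.18, Cdk1, the mitotic kinase, by 0.83 ± 0.10 and Akt1 by 0.68 ± 0.12, and Mapk3 (ERK1) fell by 0.76 ± 0.12. Transcript levels say nothing of the phosphorylation of the protein.

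Connexins differ between epidermal layers, so layer genes are given beside them. Of 13 basal genes 7 rose and 5 fell. Itga3 and Itgb4, which encode integrins, rose by 1.78 ± 0.19 and 1.14 ± 0.14, and Lama3 and Lamb3, which encode chains of laminin-332, by 1.09 ± 0.17 and 0.97 ± 0.16. The other 5 called genes fell. Krt5 and Krt14, the keratin pair of basal cells, had log2 differences of -0.64 ± 0.13 and -0.58 ± 0.15. Trp63, the transcription factor p63, fell by 0.61 ± 0.14 and Col17a1, a collagen of hemidesmosomes, fell by 0.78 ± 0.16. Dst, a plakin of hemidesmosomes, fell by 1.43 ± 0.23. Of 17 suprabasal genes 1 rose, which was Ivl, and 7 fell, with a median log2 difference of -2.23. Among those that fell were Lor (loricrin), by 2.56 ± 0.25, and Cdsn (corneodesmosin), by 2.05 ± 0.24. By limma-voom 1 of the 17 rose and 14 fell. Of 4 wound-edge keratin genes edgeR called 0 (0 higher and 2 lower at an unadjusted p under 0.05, 0 by DESeq2 and 2 lower by limma-voom). Krt16 measured 1017 and 346 CPM in ALP against 2163 and 2059 CPM in the controls, and Krt6b had a log2 difference of -1.58 ± 0.52. Krt17 and Krt6a had log2 differences of -0.19 ± 0.12 and 0.04 ± 0.10. The part of these layer differences in the connexin results was not tested.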

How the data were processed

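Total RNA of cultured mouse epidermal stem cells was extracted with TRIzol, per the labels' protocols. The submitters' processing notes list HISAT2 2.0.5, featureCounts 1.5.0-p3 and the build GRCh38, although every gene identifier is a mouse one and the members' coordinates equal those of GENCODE M21 (GRCm38). Library kit, strandedness and multi-mapping reads: not stated. The authors deposited raw counts per gene and library, with gene lengths. Columns carry replicate numbers other than the labels', so each was assigned to its group only. The 4 deposited FPKM columns were not used. FPKM was computed from counts, gene lengths and library totals, a change from the planned use of the deposited values.

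The tests ran in R 4.3.3 with edgeR 4.0.16: filterByExpr (minimum count 10, minimum total 15), TMM, glmQLFit and glmQLFTest (two-sided) with group as the only term and 2 residual degrees of freedom. The threshold was an adjusted p of 0.05 (Benjamini-Hochberg over 14056 genes). The SE of a log2 difference is its size over the root of its F statistic. Alternatives used DESeq2 1.42.0, limma 3.58.1 (voom), other scalings and filters, and fits without each library. The fit was also run on simulated counts with the same spread between replicates for every gene and both groups. The libraries here differed in spread between the groups, so that run is no check of the calls. The members and lists were chosen with earlier results of these data known. Some connexin genes are not reported here. Named genes are all members, the connexin and pannexin genes read here with a count, up to 4 genes a list by p, and the 2 nearest profiles of each called member. The marker genes, P2rx4, Ivl and the basal genes that fell were named after their values were seen. Libraries held 15766244 to 17430345 counts, and 3 counts correspond to 0.170 to 0.194 CPM.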

Additional observations from a re-analysis of the deposited data

How the results depend on the processing

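The log2 differences and the counts of called genes were recomputed under 11 alternatives, the list counts under DESeq2, limma-voom and fits without each library, and the FPKM levels with TMM-scaled library sizes only. Of 65 values for the 6 tested members, 57 kept their direction and side of the threshold, 6 lost the call, all of them for Gja1, Gjb5 and Gjc1 without a control library, and 2 changed sign. Leaving out 1 library gave between 0 and 3 members higher, and log2 differences from -0.14 to 0.32 for Gjb2 and from -0.0016 to 0.68 for Gjb6. In such a fit the lone library is assumed to vary like the other group. Over all genes, leaving out 1 library gave 0 to 3750 genes higher and 0 to 3558 lower, against 2483 and 1705 with all 4. Without control replicate A edgeR called 0 genes, with 3311 at an unadjusted p under 0.05, and without control replicate B it called 183 higher and 14 lower. At an adjusted p under 0.1, with all 4 libraries, edgeR called 3366 higher and 2885 lower. Of the other named genes Krt6a, which did not pass, changed sign with upper-quartile scaling (-0.000268) and ranged from -0.025 to 0.10 with 1 library left out. No paired analysis was possible because the columns carry none of the labels' replicate numbers in a way that matches them. The groups' columns share 1 number, that of both B libraries. Gjb6 and the other connexin Gja4 could not be compared at a minimum count of 20, since they were then not tested. With 2 libraries a group, depth limits Gjb6, Panx2 and Panx3 most. The pool shares were not recomputed over a wider set of connexins.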
